A study of Mus musculus with 7 samples.

Results

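The 4 Tead genes and 6 genes linked to YAP were examined in livers that lack the Notch effector RBPJ. Of the 6, *Ctgf*, *Cyr61*, *Ankrd1*, *Amotl2* and *Axl* are target genes widely used as readouts of YAP, and *Iqgap1* encodes a scaffold protein linked to YAP activation. Every probe that the array's design assigns to one of these 10 symbols was taken, which gave 13 of the 55681 probes that are not controls. Of the 10 genes, 8 had a probe that could be tested, out of 18771 tested genes in all, and *Tead4* and *Ankrd1* had none. Only probes with signal well above background in every animal of 1 genotype or both entered the tests, and 7 of the 8 genes met this in both genotypes.

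RNA of whole liver was hybridised to 1-colour arrays, 1 array per mouse, with 4 *Rbpj*+/+ and 3 *Rbpj*-/- animals, all C57BL/6J, untreated and 4 weeks old. The study asked which pathways are altered in the cholestatic liver. The *Rbpj*-/- mice carry AlfpCre, a Cre recombinase under control elements of the albumin and alpha-fetoprotein genes, together with floxed *Rbpj* alleles, and their livers were cholestatic. The *Rbpj*+/+ mice carry the floxed alleles without AlfpCre, so that presence of the Cre and loss of *Rbpj* cannot be told apart. Because this Cre acts in the hepatoblast lineage, which gives rise to hepatocytes and bile duct cells, the other cells of the liver are not targeted.

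TEAD proteins bind DNA but activate transcription poorly on their own. YAP and its paralogue TAZ, held in the cytoplasm by the Hippo kinases, enter the nucleus when those kinases are off and act as coactivators of TEAD. Many of the resulting target genes encode matrix-associated ligands, cytoskeletal proteins and feedback inhibitors of YAP, and in liver the pathway is known for control of organ size and for its response to injury.

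The bases before the start of 4 of the target genes are shown because these genes carry a TEAD motif and yet differed in their readings on the arrays. They are the 250 bases before the RefSeq start, on the strand of the gene, in the GRCm38.p6 build, and capitals mark the TEAD motif (GGAATG, or CATTCC where it lies on the opposite strand).
*Ankrd1*, chr19:36119845-36120094, minus strand: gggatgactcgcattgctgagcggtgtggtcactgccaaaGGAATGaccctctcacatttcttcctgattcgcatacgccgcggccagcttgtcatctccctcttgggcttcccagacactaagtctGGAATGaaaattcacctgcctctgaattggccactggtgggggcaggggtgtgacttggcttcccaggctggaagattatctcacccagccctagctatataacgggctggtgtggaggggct
*Cyr61*, chr3:145649986-145650235, minus strand: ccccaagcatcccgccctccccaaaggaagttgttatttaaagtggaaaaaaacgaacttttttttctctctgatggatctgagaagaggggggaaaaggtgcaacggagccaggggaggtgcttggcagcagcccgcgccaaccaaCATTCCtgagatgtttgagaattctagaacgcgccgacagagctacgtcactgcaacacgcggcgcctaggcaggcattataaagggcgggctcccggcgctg
*Axl*, chr7:25788734-25788983, minus strand: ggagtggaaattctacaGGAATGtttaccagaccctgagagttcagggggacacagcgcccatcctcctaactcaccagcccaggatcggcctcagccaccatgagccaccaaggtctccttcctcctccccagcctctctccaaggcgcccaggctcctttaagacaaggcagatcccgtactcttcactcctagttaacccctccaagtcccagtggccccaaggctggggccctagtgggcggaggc
*Amotl2*, chr9:102717554-102717803, plus strand: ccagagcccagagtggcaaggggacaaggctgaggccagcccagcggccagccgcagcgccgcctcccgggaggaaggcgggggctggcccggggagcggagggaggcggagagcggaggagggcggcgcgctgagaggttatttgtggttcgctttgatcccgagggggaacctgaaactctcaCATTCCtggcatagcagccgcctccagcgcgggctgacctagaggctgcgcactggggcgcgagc
The motif begins 210 and 123 bases before the start in *Ankrd1*, 103 in *Cyr61*, 233 in *Axl* and 65 in *Amotl2*. RefSeq windows were found for 7 of the 10 genes but not for *Ctgf*, *Tead1* or *Tead4*, which were therefore not searched. Of the 7 genes, 5 held the motif, the other one being *Tead3*, in 2 of its 3 windows. Counted by window, 6 of the 9 windows of these genes held it, beside 12.6% of all 32851 windows of this length, on either strand. The RBPJ motif (TGGGAA, either strand) was found in windows of the genes *Ankrd1*, *Tead2* and *Tead3*. Its share over all windows, counted by window and not by gene, was 21.6%. In no member did it overlap the TEAD motif. The AP-1 motif (TGANTCA, either strand) lay in none of the 7 genes' windows and in 6.75% of all windows. These matches describe letters only, and windows further from the start were not searched.

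Intensities are given as log2 values after subtraction of the 75th percentile of each array, so that a probe at 0 was as bright as the 75th percentile. Levels of different probes are not compared, since brightness also depends on the probe. Probe positions follow the mm9 coordinates of the array files, and their place within exons was not analysed here. *Rbpj* itself was read as a check by a probe on chromosome 5 (54048503 to 54048562). Its log2 value of 0.60 ± 0.34 (SD, n = 4) in the *Rbpj*+/+ group compared with −0.54 ± 0.22 (SD, n = 3) in the *Rbpj*-/- group, without overlap, and its transcript was still well above background on all 3 *Rbpj*-/- arrays. A second probe with this symbol, which the array files place on chromosome 6, read −1.79 ± 0.83 (SD, n = 4) against −3.42 ± 1.15 (SD, n = 3), with overlap between the genotypes. It was well above background on 2 of the 3 *Rbpj*-/- arrays. Both probes passed as lower, with log2 fold changes of −1.13 (adjusted p = 0.0115 from limma) and −1.63 (adjusted p = 0.0723). All arrays lay on 1 slide, with *Rbpj*+/+ in its first row and *Rbpj*-/- in its second, so that row and genotype cannot be told apart. Between 41.1% and 64.9% of probes on an array were well above background, with the highest shares on *Rbpj*+/+_1156 and *Rbpj*-/-_N3, whose dim probes were brighter (median intensity 18.7 and 29.6, against 4.99 to 7.75 on the other arrays).

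Of the 8 tested genes, 5 passed an adjusted p of 0.1 from limma as higher in *Rbpj*-/- liver and 0 as lower. The 5 were *Tead1*, *Tead2*, *Ctgf*, *Axl* and *Iqgap1*. Among all tested genes 14.6% were higher and 19.6% were lower at this threshold. *Cyr61*, *Amotl2* and *Tead3* did not pass. In the same 5 genes every *Rbpj*-/- animal lay above every *Rbpj*+/+ animal, which was the case for 15.4% of all tested genes. Read by probe, 6 of the 10 tested probes were higher, against 14.3% of all tested probes. RNA came from whole liver, so that a change in the number of cells of a type and a change in RNA per cell cannot be told apart.

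**Figure D1:**
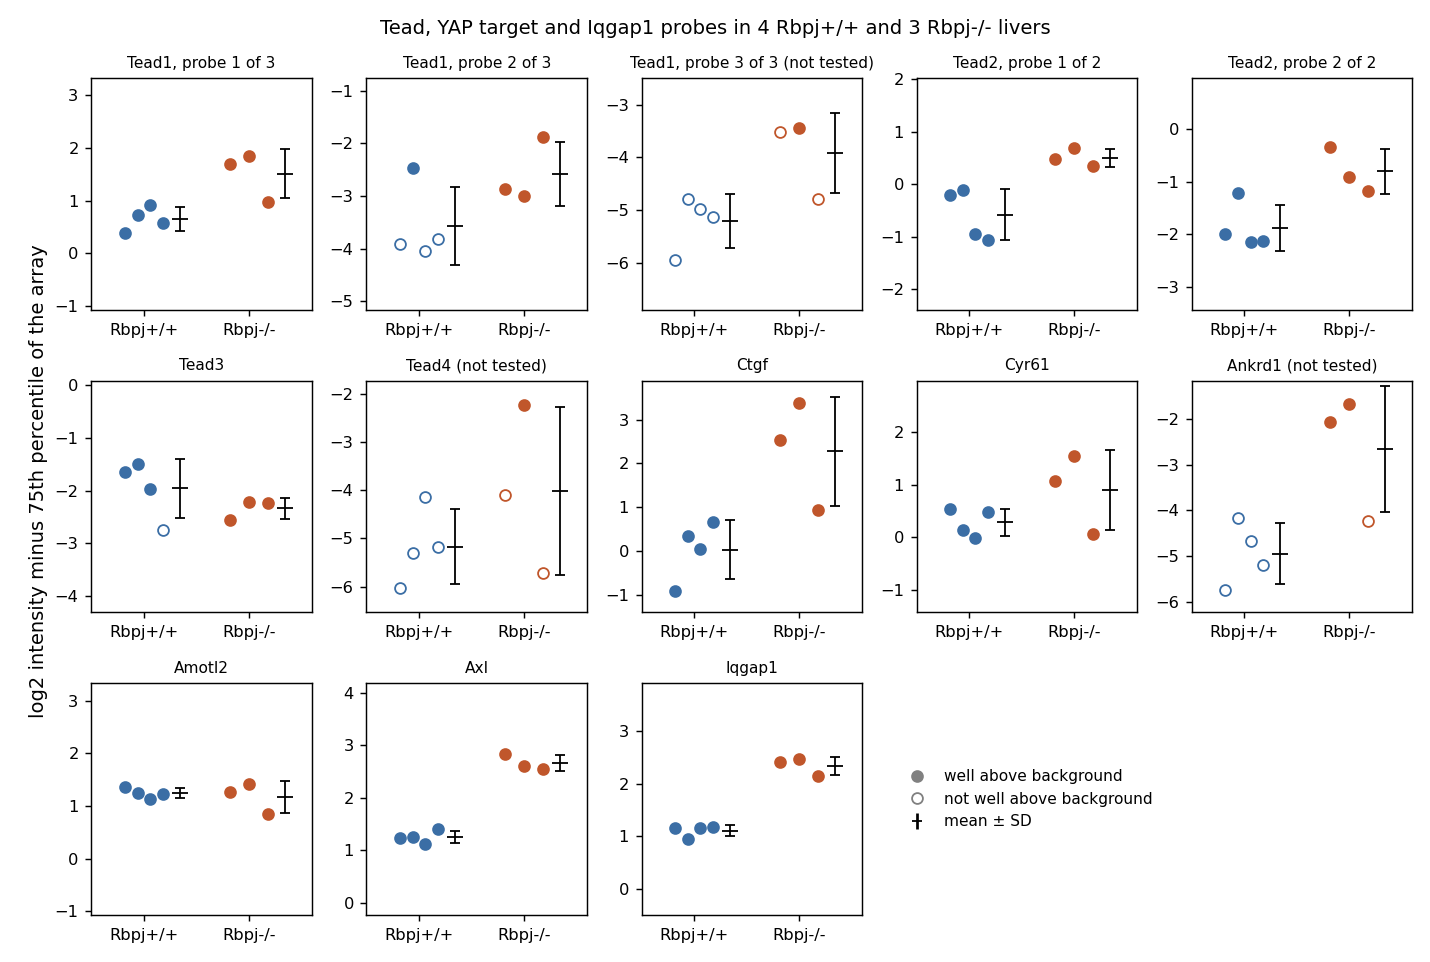
Log2 intensity after percentile shift (vertical axes) of the 13 probes in 4 *Rbpj*+/+ (blue) and 3 *Rbpj*-/- (orange) livers, with mean ± SD beside each group and open symbols where a probe was not well above background. The points of *Axl* and *Iqgap1* are tight and apart, while those of *Ctgf*, *Cyr61* and *Ankrd1* are spread over the *Rbpj*-/- animals.

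Among the TEAD factors, the DNA-binding partners of YAP, *Tead1* and *Tead2* were higher in *Rbpj*-/- liver and *Tead3* was not called. The brightest *Tead1* probe (chromosome 7, 120049844 to 120049903) read 0.39 in *Rbpj*+/+_1155, 0.73 in *Rbpj*+/+_1156, 0.92 in *Rbpj*+/+_1024 and 0.58 in *Rbpj*+/+_991, against 1.70 in *Rbpj*-/-_N3, 1.85 in *Rbpj*-/-_N5 and 0.98 in *Rbpj*-/-_2866. This order of animals is kept for the genes that follow. The groups do not overlap, but *Rbpj*-/-_2866 lay only just above the highest *Rbpj*+/+ animal. The log2 fold change was 0.85 (SE 0.25, 95% confidence interval 0.28 to 1.43), a rise of 1.81-fold, with an adjusted p of 0.0416 from limma. The call was lost without *Rbpj*-/-_N3 (0.76, adjusted p = 0.123), without *Rbpj*-/-_N5 (0.69, adjusted p = 0.152) and without both arrays with brighter dim probes (0.78, adjusted p = 0.128), while the log2 fold change stayed of similar size. The 2 other *Tead1* probes were dim. The second probe (120042204 to 120042263) exceeded background clearly on 1 of 4 *Rbpj*+/+ and on 3 of 3 *Rbpj*-/- arrays, and its log2 fold change of 0.99 did not pass (adjusted p = 0.124 from limma). It was highest in *Rbpj*-/-_2866, the animal in which the brightest probe was lowest. With background correction by normexp its value was −0.18. Without *Rbpj*+/+_1156, the only *Rbpj*+/+ array on which it was well above background, it passed (adjusted p = 0.0217 from limma), but against readings at background, so that no fold is given. The third probe (120043445 to 120043504) was well above background on 1 of 7 arrays, that of *Rbpj*-/-_N5.

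*Tead2*, which is known for its expression in the embryo, was read by 2 probes that lie near each other on chromosome 7. The brighter probe (52488930 to 52488989) read −0.20, −0.11, −0.94 and −1.06 in the *Rbpj*+/+ animals, in the order given above, and 0.47, 0.68 and 0.34 in the *Rbpj*-/- animals. Every *Rbpj*-/- animal lay above every *Rbpj*+/+ animal. Its log2 fold change was 1.08 (SE 0.28, 95% confidence interval 0.44 to 1.71), a 2.11-fold rise with an adjusted p of 0.0264 from limma. The second probe (52488742 to 52488801) gave 1.07 (SE 0.30, adjusted p = 0.0339) and did not overlap between genotypes either. The second probe did not pass without *Rbpj*-/-_N3 (adjusted p = 0.111 from limma) or with normexp (0.26, adjusted p = 0.205), where the brighter probe passed (0.58, adjusted p = 0.0217).

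*Tead3*, a TEAD factor known from the placenta, was read by 1 probe on chromosome 17 (28468622 to 28468681). It read −1.64, −1.49, −1.96 and −2.74 in *Rbpj*+/+ and −2.56, −2.21 and −2.23 in *Rbpj*-/- animals. The groups overlap, and the lowest of all 7 values belonged to *Rbpj*+/+_991, where the probe was not well above background. *Tead3* had a log2 fold change of −0.37 with a 95% confidence interval from −1.06 to 0.32 (adjusted p = 0.395 from limma). With normexp it was −0.38 and passed (adjusted p = 0.0503). *Tead4* (chromosome 6, 128177161 to 128177220) was well above background on 1 of 7 arrays, that of *Rbpj*-/-_N5, where it read −2.22. In the other *Rbpj*-/- animals it read −4.09 and −5.71, and the *Rbpj*+/+ animals read −6.04 to −4.14. No fold change is given for it.

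Whether the Tead genes changed unequally was tested on the difference between their probes within each array, for all 6 pairs. The change of *Tead2* lay above that of *Tead3* by 1.45 on the log2 scale, without overlap between genotypes, and the change of *Tead1* lay above that of *Tead3* by 1.23. The exact two-sided permutation p was 0.0571 and 0.114 before adjustment and 0.343 for both after Benjamini-Hochberg adjustment over the 6 pairs. None of the 6 pairs passed, but 0.0571 is the smallest p that 4 against 3 animals can give, and 4 of the 6 pairs would have to reach it for any to pass. *Tead1* and *Tead2* differed by −0.22 in their change (adjusted p = 0.857, exact permutation test), which does not show that they changed alike. The 3 pairs with *Tead4* are not read, because *Tead4* was near background. With normexp the pairs of *Tead1* and of *Tead2* against *Tead3* had an adjusted p of 0.0857 (exact permutation test), which these pairs reached together with 2 pairs that include *Tead4*.

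**Figure D2:**
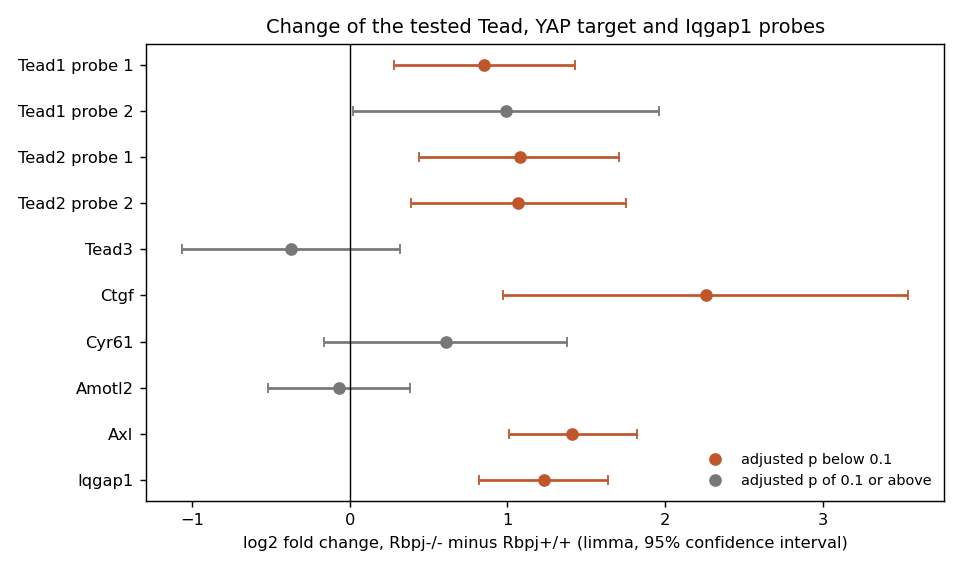
Log2 fold change of each tested probe (horizontal axis, *Rbpj*-/- minus *Rbpj*+/+, limma) with its 95% confidence interval. Orange probes passed an adjusted p of 0.1, and the interval of *Ctgf*, from 0.97 to 3.54, is the widest.

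*Ctgf* and *Cyr61* encode secreted matricellular proteins of the CCN family and are the targets most often used to read YAP activity. *Ctgf*, also named *Ccn2*, had the largest change among the 8 tested genes. Its probe (chromosome 10, 24318281 to 24318340) read −0.91, 0.33, 0.04 and 0.65 in the *Rbpj*+/+ animals, in the same order, and 2.53, 3.39 and 0.93 in the *Rbpj*-/- animals. The groups do not overlap, although *Rbpj*-/-_2866 lay close to the upper *Rbpj*+/+ value. *Ctgf* had a log2 fold change of 2.26 (SE 0.57, 95% confidence interval 0.97 to 3.54), a 4.78-fold rise with an adjusted p of 0.0230 from limma. It passed when any animal was left out, with log2 fold changes between 1.70 without *Rbpj*-/-_N5 and 2.94 without *Rbpj*-/-_2866.

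*Cyr61*, also named *Ccn1*, was read on chromosome 3 (145310187 to 145310246). Its values were 0.53, 0.13, −0.01 and 0.47 in *Rbpj*+/+ and 1.06, 1.55 and 0.06 in *Rbpj*-/- animals. *Rbpj*-/-_N3 and N5 lay above all *Rbpj*+/+ animals and *Rbpj*-/-_2866 lay among them. The log2 fold change of 0.61 (SE 0.34, 95% confidence interval −0.16 to 1.38) did not pass (adjusted p = 0.220 from limma). Without *Rbpj*-/-_2866 it was 1.03 and passed (adjusted p = 0.0333), and without *Rbpj*-/-_N5 it was 0.28. Of the CCN family, 2 of 4 tested genes were higher, beside 14.6% of all tested genes. These were *Ctgf* and *Wisp2* (1.41, SE 0.52, adjusted p = 0.0804 from limma), while *Wisp1* was at 0.10 (adjusted p = 0.741).

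*Ankrd1* encodes a nuclear ankyrin repeat protein known from heart muscle. Its probe (chromosome 19, 36186809 to 36186868) was well above background in 2 of the 3 *Rbpj*-/- livers and in 0 of the 4 *Rbpj*+/+ livers. It read −5.74, −4.17, −4.68 and −5.20 in *Rbpj*+/+ and −2.06, −1.66 and −4.23 in *Rbpj*-/- animals. *Rbpj*-/-_2866 again lay among the *Rbpj*+/+ values. The groups overlap, with an exact two-sided permutation p of 0.114. No fold change is given, because the *Rbpj*+/+ readings and that of *Rbpj*-/-_2866 were not well above background.

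*Amotl2* encodes an angiomotin, a family of junctional proteins that bind and restrain YAP. Its probe (chromosome 9, 102635025 to 102635084) read 1.37, 1.24, 1.13 and 1.23 in *Rbpj*+/+ and 1.26, 1.42 and 0.84 in *Rbpj*-/- animals. The groups overlap, and *Rbpj*-/- animals held both the highest and the lowest value. The log2 fold change was −0.07 with a 95% confidence interval from −0.52 to 0.38 (adjusted p = 0.821 from limma), so that a change of the size found for *Axl* or *Iqgap1* lies outside the interval. *Amot*, of the same family, was at 0.45 (adjusted p = 0.189), and 0 of the 2 tested angiomotin genes passed.

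*Axl* encodes a receptor tyrosine kinase of the TAM family that binds GAS6. Its probe (chromosome 7, 26542541 to 26542600) read 1.23, 1.25, 1.12 and 1.40 in *Rbpj*+/+ and 2.83, 2.60 and 2.55 in *Rbpj*-/- animals. The genotypes are far apart relative to the spread within them. *Axl* had a log2 fold change of 1.41 (SE 0.18, 95% confidence interval 1.01 to 1.82), a 2.66-fold rise with an adjusted p of 0.00174 from limma. Of the 5 TAM receptors and ligands, *Axl* itself included, 4 were higher, beside 14.6% of all tested genes. They were the receptors *Axl*, *Tyro3* (1.09, SE 0.30, adjusted p = 0.0312) and *Mertk* (0.58, SE 0.17, adjusted p = 0.0401) and the ligand *Pros1* (0.62, SE 0.24, adjusted p = 0.0951). The ligand *Gas6* was at 0.57 (SE 0.27) and did not pass (adjusted p = 0.152).

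*Iqgap1* encodes a scaffold protein that links actin, cadherins and several kinases. Its probe (chromosome 7, 87857845 to 87857904) read 1.15, 0.95, 1.15 and 1.18 in *Rbpj*+/+ and 2.41, 2.46 and 2.14 in *Rbpj*-/- animals. The groups do not overlap. This gave a log2 fold change of 1.23 (SE 0.18, 95% confidence interval 0.82 to 1.64), a 2.34-fold rise with an adjusted p of 0.00299 from limma. *Axl* and *Iqgap1* passed under all 18 alternatives, between 1.18 and 1.49 for *Axl* and between 1.14 and 1.33 for *Iqgap1*. Its relative *Iqgap3*, which is known from dividing cells, rose by 3.02 (SE 0.40, adjusted p = 0.00205), and the hepatocyte-expressed *Iqgap2* was at −0.18 (adjusted p = 0.554). *Iqgap3* was not well above background in *Rbpj*+/+_1024, where it read −3.38, but was so in every *Rbpj*-/- animal. It thus entered the tests through the genotype in which it is high, and its fold change rests partly on a background reading.

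Which probes entered the fit decided part of these calls. With all 55681 probes in the fit, *Axl* and *Iqgap1* were the only genes of the 10 that passed (adjusted p = 0.0388 and 0.0526 from limma), and *Ctgf*, *Tead2* and *Tead1* had adjusted p of 0.155, 0.172 and 0.224. Their log2 fold changes there were the same, 2.26, 1.08 and 0.85.

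The *Rbpj*-/- animals were spread more widely in *Ctgf* and *Cyr61* than in *Axl* and *Iqgap1*. The ranges within *Rbpj*-/- were 2.46 for *Ctgf* and 1.50 for *Cyr61*, and 0.28 for *Axl* and 0.32 for *Iqgap1*. *Rbpj*-/-_2866 was the lowest of the 3 animals in 11 of the 13 probes. Among these were *Ankrd1*, *Tead4* and the third *Tead1* probe, where it was not well above background. Some of the 13 probes read the same gene, and the share of all probes in which this animal was lowest was not counted. Its difference from the mean of N3 and N5 on the log2 scale was −2.04 in *Ctgf*, −1.25 in *Cyr61* and −0.80 in the brightest *Tead1* probe. It was −0.57 and −0.24 in the *Tead2* probes, −0.50 in *Amotl2*, −0.30 in *Iqgap1* and −0.17 in *Axl*, and 0.15 in *Tead3* and 1.05 in the second *Tead1* probe. *Ankrd1* was well above background in N3 and N5 and not in *Rbpj*-/-_2866. Over all 24548 tested probes this difference had a median of 0.02, with 10% of probes below −0.58 and 10% above 0.56. These gaps were read after the animals' values were seen and were not tested.

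**Figure D3:**
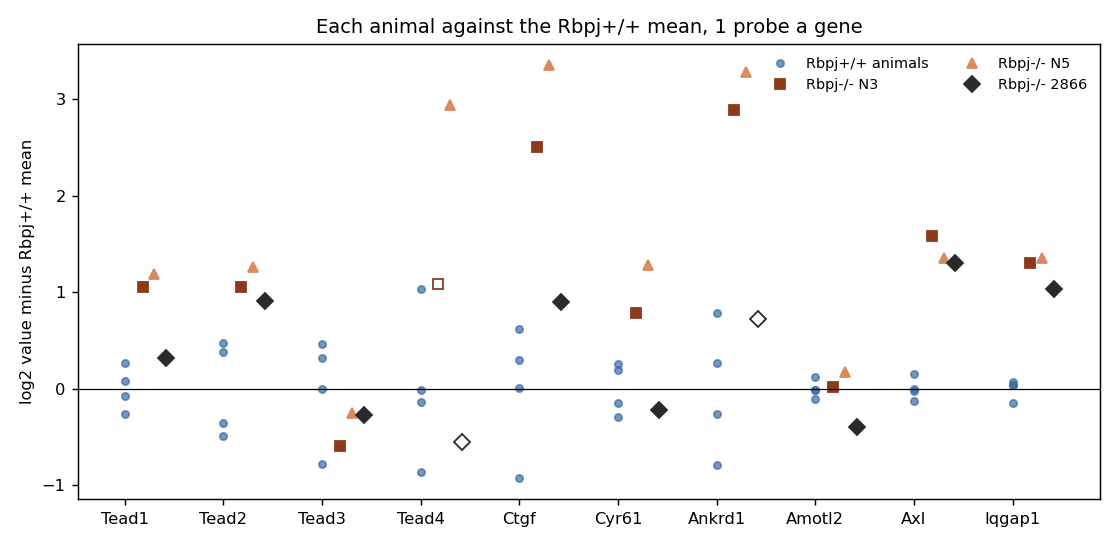
Difference of each animal from the mean of the *Rbpj*+/+ animals (vertical axis, log2) for 1 probe of each gene, with open symbols for *Rbpj*-/- values not well above background. For *Ankrd1* and *Tead4* the *Rbpj*+/+ mean itself is not well above background, and *Rbpj*-/-_2866 (diamonds) sits at 0.90 for *Ctgf* and −0.22 for *Cyr61*, below N3 and N5, but at 1.30 for *Axl* and 1.03 for *Iqgap1*.

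The subunits of AP-1, whose dimers bind many enhancers together with TEAD, included higher genes. Of 6 tested subunits 4 passed as higher and 0 as lower, beside 14.6% higher and 19.6% lower over all tested genes. *Fosl2* (1.22, SE 0.30, adjusted p = 0.0209 from limma) and *Jun* (1.03, SE 0.29, adjusted p = 0.0323) were well above background on every array. *Junb* (1.71, SE 0.43, adjusted p = 0.0239) and *Fos* were so in every *Rbpj*-/- animal but not in every *Rbpj*+/+ animal, and entered the tests through the genotype in which they are high. *Fos* was at background in all 4 *Rbpj*+/+ animals, and its adjusted p of 0.00123 from limma rests on those readings. For a bound, each *Rbpj*+/+ reading was replaced by the lowest signal well above background on its array, where that was higher. Against this, the mean of *Rbpj*-/- liver was at least 6.15-fold higher, a bound that was not itself tested. In the *Rbpj*-/- animals, in the order given for *Tead1*, *Fos* read −0.30, −0.09 and −1.88, *Junb* −0.32, −0.45 and −2.09, *Fosl2* 1.48, 1.80 and 0.64, and *Jun* 4.03, 4.61 and 3.45. *Rbpj*-/-_2866 was the lowest of the 3 in these 4 subunits and in *Fosb*, which did not pass (−1.60, −1.53 and −2.56). It was not the lowest in *Jund*, where it read 5.73 against 5.54 in *Rbpj*-/-_N3.

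Of the cofactors that TEAD proteins bind, 1 of 3 tested genes passed as higher, beside 14.6% of all tested genes. *Wwtr1*, which encodes TAZ, read 0.27 to 1.01 in *Rbpj*+/+ and 1.48, 1.68 and 1.46 in *Rbpj*-/- animals, with a log2 fold change of 0.99 (SE 0.22, adjusted p = 0.0145 from limma). *Yap1* was at −0.32 (SE 0.20, adjusted p = 0.259) and *Vgll4*, a competitor of YAP for TEAD, at −0.21 (SE 0.27, adjusted p = 0.599). *Vgll1*, *Vgll2* and *Vgll3* were too dim to be tested. Arrays read transcripts, and the place of YAP in the cell was not measured here.

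A wider list of 22 YAP target genes, which includes *Ctgf*, *Cyr61*, *Ankrd1*, *Amotl2* and *Axl*, held called genes of both directions. Of its 17 tested genes 5 were higher and 1 was lower, beside 14.6% higher and 19.6% lower over all tested genes, with a median log2 fold change of 0.12, beside −0.13 over all tested genes. Besides *Ctgf* and *Axl* the higher genes were *Ccdc80*, a matrix protein gene (1.93, SE 0.25, adjusted p = 0.00177 from limma), *Tgfb2* (0.87, SE 0.29, adjusted p = 0.0606) and *Crim1* (0.86, SE 0.34, adjusted p = 0.0973). *Igfbp3*, which encodes a carrier of insulin-like growth factors, fell by 1.96 (SE 0.46, adjusted p = 0.0181). Without the genes described above, which were chosen with results known, 3 of 13 tested genes were higher and 1 was lower, and the median was −0.04. Among the 11 genes that did not pass, log2 fold changes ran from −0.55 (*F3*) to 0.61 (*Cyr61*). A p above the threshold does not show that these genes did not differ.

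**Figure D4:**
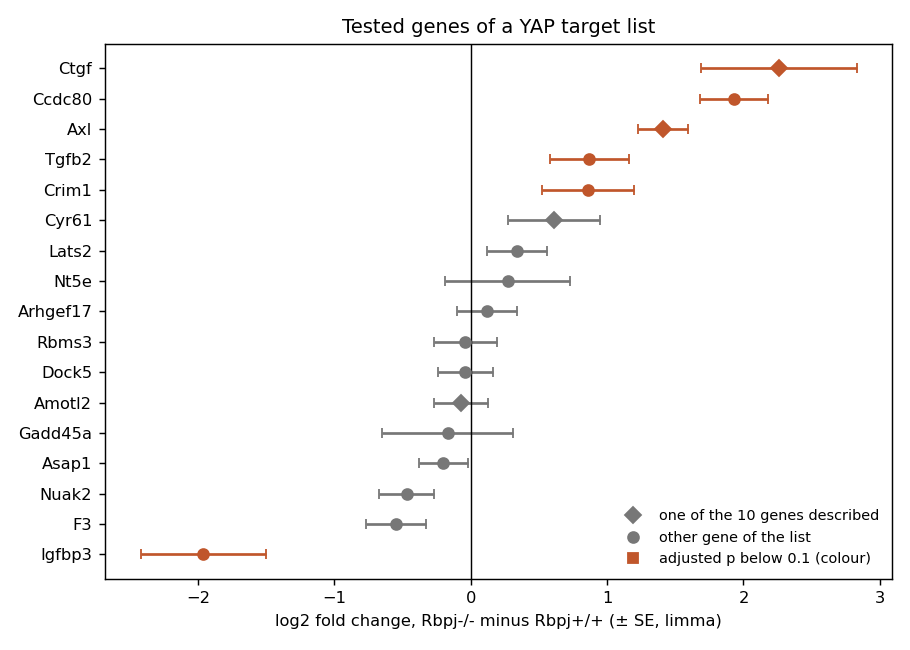
Log2 fold change ± SE (horizontal axis, *Rbpj*-/- minus *Rbpj*+/+, limma) of the 17 tested genes of the YAP target list, with diamonds for genes described singly above and orange for an adjusted p below 0.1. The values run from −1.96 for *Igfbp3* to 2.26 for *Ctgf*.

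Markers of several liver cell types moved with genotype beside these genes, and their counts stand beside 14.6% higher and 19.6% lower genes over all tested genes. Of 12 stellate cell and fibroblast markers 10 were higher and 0 lower, and the mean log2 value of the list was 1.26 to 1.77 in *Rbpj*+/+ and 2.44 to 3.24 in *Rbpj*-/- animals. Of 9 macrophage markers 7 were higher and 1 lower (1.60 to 2.21 and 3.65 to 4.13), and of 9 endothelial markers 5 were higher and 1 lower (1.20 to 1.74 and 1.95 to 2.29). All 9 proliferation markers were higher (−1.08 to 0.42 and 1.89 to 2.40). Of 12 hepatocyte markers, all well above background on every array, 6 were lower and 1 was higher, with overlapping means (7.54 to 8.13 and 7.48 to 7.91). Of 6 tested cholangiocyte markers 2 were higher and 0 lower (−1.48 to −0.76 and −1.34 to −0.21), while *Epcam*, *Cldn4* and *Muc1* were too dim to be tested. The neutrophil markers had 2 higher and 1 lower of 7, the lymphocyte markers 1 higher and 5 lower of 8, the erythroid markers 0 higher and 1 lower of 4, and of the 2 tested mesothelial markers 0 passed. *Rbpj*-/-_2866 had the lowest stellate, macrophage, cholangiocyte and mesothelial means of the 3 *Rbpj*-/- animals (2.44, 3.65, −1.34 and −2.73). Its proliferation, hepatocyte, lymphocyte, erythroid and neutrophil means were the highest of the 3 (2.40, 7.91, −0.54, 4.18 and 0.92). The part of these cell types in the changes of *Tead1*, *Tead2*, *Ctgf*, *Axl* and *Iqgap1* was not tested.

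**Figure D5:**
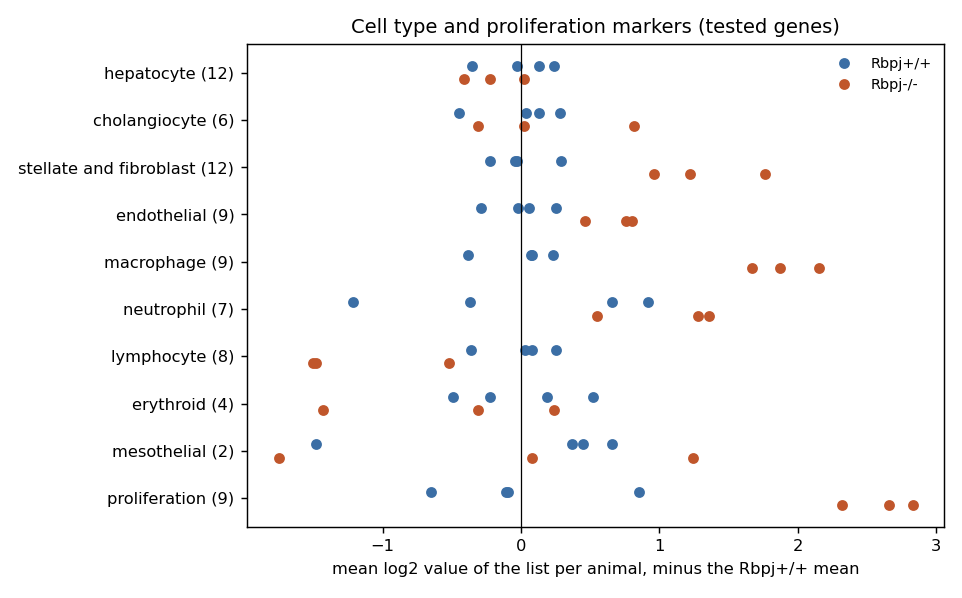
Mean log2 value of the tested markers of each list per animal, minus the mean of the *Rbpj*+/+ animals (horizontal axis), with the number of tested genes in brackets. The *Rbpj*-/- animals (orange) lie above the *Rbpj*+/+ animals (blue) in the stellate, endothelial, macrophage and proliferation lists. They lie below them in the lymphocyte list and overlap with them in the hepatocyte list.

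The gene with the most similar profile over the 7 arrays was sought for each tested gene, by the smallest root mean square difference of mean-centred log2 values among 18744 genes. For *Axl* this was *Adap1*, at a difference of 0.04, and for *Iqgap1* the collagen gene Col5a1, at 0.07. *Tead1* was closest to *Nabp1* (0.14), *Tead2* to a probe without a gene name (0.14) and *Tead3* to *4632404H12Rik* (0.11). *Cyr61* was closest to *Slc39a6* (0.16) and *Amotl2* to *Zfp668* (0.09). *Ctgf* had no close neighbour, as its nearest profile, that of *LOC102641377*, lay 0.41 away. These distances describe 7 arrays of 2 genotypes, and a small change with little spread has near neighbours more easily.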

How the data were processed

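Arrays of 7 livers (Agilent mouse 8x60K, Cy3) were analysed. The intensity values deposited by the authors are background-subtracted signals of single spots from Agilent Feature Extraction 10.7.3.1 (submitters' processing notes), not normalized between arrays. The log2 values of the series matrix, also made by the authors, match quantile-normalized log2 intensities centred on each probe's median and served as an alternative.

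Controls were dropped, as were 146 probe values from spots with a non-uniformity or population outlier mark. Replicate spots were averaged after log2 transformation, and each array was shifted by its 75th percentile. For 24548 probes the marks for a positive, significant signal well above background held in every animal of 1 genotype or both. These were compared with limma 3.58.1 (R 4.3.3), and p-values were adjusted over all of them by Benjamini-Hochberg at a threshold of 0.1. A gene was read by its brightest tested probe. Exact two-sided permutation tests (35 splits) used scipy 1.17.1. The fit was tested on simulated data. The number of arrays limits the precision, and p-values set the difference between genotypes against the spread between these animals. Promoter windows came from RefSeq (GRCm38.p6), where *Ctgf* and *Cyr61* were sought as *Ccn2* and *Ccn1*. No window was found for *Ctgf*, *Tead1* or *Tead4*.

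The genes and lists were chosen with earlier results of these data known. Named were all 10 genes, *Rbpj*, the TEAD cofactors, the counts of each list with, for gene families and target lists, up to its 3 largest changes and its other called genes, and the nearest profile of each gene. The 3 largest changes of each marker list, also part of this rule, are not printed. One cholangiocyte marker is not reported here. The lists were TEAD cofactors, YAP targets, CCN, angiomotin, muscle ankyrin repeat, TAM, IQGAP and AP-1 genes, and markers of proliferation and of mesothelial, erythroid, lymphocyte, neutrophil, macrophage, endothelial, stellate, cholangiocyte and hepatocyte cells. Of the 2 tested muscle ankyrin repeat genes, *Ankrd2* (0.22, adjusted p = 0.693) and *Ankrd23* (−0.40, adjusted p = 0.278), 0 passed. Alternatives were background correction, normalization, filters, weights, threshold and leaving out animals.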

Additional observations from a re-analysis of the deposited data

Results flagged for a closer look

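In 3 of the 13 probes, 1 of the 4 *Rbpj*+/+ animals stood apart from the other 3, and in each it was animal *Rbpj*+/+_1156. By the measure used (Dixon's ratio of the gap to the range, above its 95% critical value for 4 samples) chance marks about 1 in 20 groups. The second *Tead1* probe read −2.46 in this animal, the second *Tead2* probe −1.22, both above the other *Rbpj*+/+ animals, and *Iqgap1* read 0.95, below them. Its array was also the *Rbpj*+/+ array with the brightest dim probes (median intensity 18.7), and the part of this in the 3 readings was not tested.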

How the results depend on the processing

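Over 18 alternatives, *Axl* and *Iqgap1* passed in all. Without the filter on dim probes 2038 probes passed instead of 8241, among them 2 member probes and 2 member genes instead of 6 and 5, and 2 YAP list genes instead of 6. Both the variance shrinkage of the fit and the adjustment then drew on 55681 probes instead of 24548, and the part of each was not tested. When single animals were left out, 4878 (without *Rbpj*-/-_N5) to 9000 probes passed, with 5479 without *Rbpj*+/+_1024, and 4 to 7 member probes, 4 to 6 member genes and 4 to 7 YAP list genes. Leaving out both arrays with brighter dim probes, an alternative chosen after their values were seen, gave 4 member genes, without *Tead1*. The log2 fold change of *Amotl2* turned to 0.08 with normexp, to 0.01 with the percentile taken over probes detected on all arrays and ranged from −0.19 to 0.10 when single animals were left out, being above 0 without *Rbpj*-/-_2866. With normexp the differences in change turned to 0.24 for *Tead1* against *Tead2*, 1.09 for *Tead1* against *Tead4* and 0.86 for *Tead2* against *Tead4*, of which those with *Tead4* rest on readings near background. *Tead3* could not be tested among probes detected on all 7 arrays, and leaving out animals was not run for the pairs of Tead genes, where fewer animals allow only larger p. No paired analysis was possible because the genotypes share no replicate numbers. Scaling moved the median log2 fold change of all tested genes from −0.13 to −0.04 with quantile normalization and to −0.07 with normexp. Brightness over background limits *Tead4*, *Ankrd1* and both dim *Tead1* probes.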
